A study of Mus musculus with 6 samples.

Results

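The genes for the proteins of the cytosolic ribosome were followed in mouse liver tumours after MYC, the growth-promoting transcription factor that drives these tumours, was switched off. They were chosen by symbol alone from the 52459 rows of a table of read counts: every symbol made of Rpl or Rps and a number, with Rplp0, Rplp1, Rplp2 and Rpsa added, and with pseudogenes (-ps in the symbol), the Rps6k kinases and Rps19bp1 removed. This gave 91 rows. Of these, 77 are the core proteins, 46 of the large and 31 of the small subunit, and 14 are paralogues or copies such as Rpl22l1 and Rps27rt. RNA was sequenced from whole liver tumour tissue. The genotype was MYC-LAP-tTA: a liver promoter drives the tetracycline transactivator that controls a MYC transgene. In 3 samples MYC had been inactivated for 4 days (MYC_Off), and in 3 samples MYC was active (MYC_On). Both groups carry both transgenes, and the labels give neither age, strain nor the agent used to switch MYC off. The transactivator acts in hepatocytes and the tumour cells derived from them, while the RNA came from all cells of the tissue, so that fewer cells of a type and less RNA per cell cannot be told apart. Separate animals are not stated for the samples of a group, so the spread behind each p-value may be technical.

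Ribosomal proteins are made in the cytosol, carried into the nucleolus and fitted onto ribosomal RNA while the small and the large subunit are assembled, and nearly all of them are needed in equal numbers. Their mRNAs are among the most abundant of any growing cell, and most begin with a cytosine and a run of pyrimidines, the terminal oligopyrimidine (TOP) motif through which mTORC1 and Larp1 control their translation. MYC is known for raising the output of ribosome components. The mRNAs have also been copied back into the mouse genome many times as processed pseudogenes, so that a short read from a ribosomal protein mRNA can match several places.

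Each library held 16292718 to 19265623 assigned reads. Counts are given as CPM, read counts set to a common library size by TMM scaling, which corrects for a few genes taking a large share of reads. Myc stood at 74.8, 10.2 and 18.7 CPM in MYC_Off and at 779, 1018 and 854 CPM in MYC_On. Summed markers of differentiated hepatocytes reached 102000 to 267000 CPM in MYC_Off, against 2660 to 6360 CPM in MYC_On, and all 7 were higher in MYC_Off. The 6 macrophage markers summed to 1390 to 4710 CPM in MYC_Off and to 355 to 681 CPM in MYC_On, and the 3 proliferation markers to 55.1 to 100 CPM in MYC_Off and to 651 to 916 CPM in MYC_On. Stellate cell and fibroblast markers summed to 742 to 1890 CPM in MYC_Off and to 105 to 123 CPM in MYC_On (5 of 5 higher), and endothelial markers to 210 to 510 CPM in MYC_Off and to 48.8 to 55.6 CPM in MYC_On (3 of 4 higher). Erythroid markers summed to 600 to 2230 CPM in MYC_Off and to 30.7 to 88.4 CPM in MYC_On (3 of 3 higher). T cell markers summed to 134, 15.5 and 3.3 CPM in MYC_Off replicates 1, 2 and 3, against 1.16 to 2.66 CPM in MYC_On (4 of 5 higher). B cell markers summed to 41.6, 3.67 and 1.54 CPM in MYC_Off, against 0.395 to 0.891 CPM in MYC_On (1 of 4 higher). MYC_Off replicate 1 was the highest library for the macrophage, T cell, B cell, endothelial, fibroblast and erythroid sums. Among the MYC_Off libraries it also had the highest Myc level and the highest proliferation sum. No marker of any list was at 0. The part of these shifts in the ribosomal protein results was not tested.

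Ribosomal protein mRNA made up a smaller share of the RNA once MYC was off. The 91 rows took 0.865%, 0.370% and 0.395% of all assigned reads in MYC_Off replicates 1, 2 and 3, against 1.73%, 1.72% and 2.38% in MYC_On. Every MYC_Off library was below every MYC_On library, and MYC_Off replicate 1 stood above its fellows as MYC_On replicate 3 did above its own. The means were 0.543% ± 0.278 in MYC_Off and 1.94% ± 0.376 in MYC_On (SD, n = 3 each), a ratio of 0.28. The denominator moved as well: the 20 most abundant genes took 28.3% to 38.0% of MYC_Off reads and 9.61% to 17.5% of MYC_On reads. With those 20 genes left out, the share was 0.793% ± 0.361 in MYC_Off and 2.27% ± 0.53 in MYC_On, a ratio of 0.349.

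**Figure D1:**
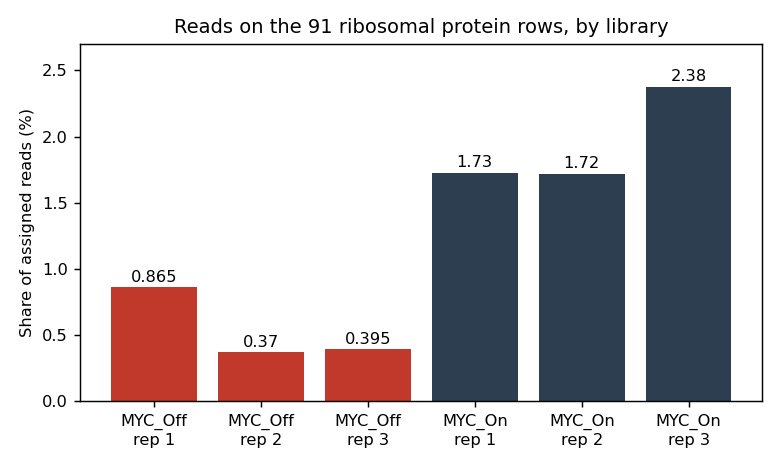
Bars give the share of assigned reads, in percent, that fell on the 91 ribosomal protein rows in each of the 3 MYC_Off and 3 MYC_On libraries. The MYC_Off bars reach 0.865%, 0.370% and 0.395%, all below the lowest MYC_On bar of 1.72%.

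Of the 91 rows, 83 had enough reads to be tested, 76 core proteins and 7 paralogues. In MYC_Off 55 of the 83 were lower and 0 were higher at an adjusted p of 0.05 (quasi-likelihood test of edgeR, Benjamini-Hochberg adjustment over all genes), while 22.8% of the 14130 genes tested were lower and 29.9% higher. At an unadjusted p under 0.05 there were 63 lower and 0 higher, and DESeq2 and limma-voom also called 0 higher, with 62 and 57 lower. Of all genes, DESeq2 and limma-voom called 27.2% and 23.6% lower. The log2 fold change was below 0 in 80 of the 83 rows, against 45.4% of all genes, and its median was -1.23, with quartiles of -1.64 and -0.94, beside a median of 0.18 over all genes. All MYC_Off libraries were below all MYC_On libraries in 65 of the 83, against 29.8% of all genes. The count depended on the libraries used. Without MYC_On replicate 3, the highest MYC_On library for 65 of the 83 rows, 33 members were lower, with a median of -1.13. It was 39 and 40 without MYC_On replicate 1 or 2, and 42 and 52 without MYC_Off replicate 2 or 3. The share of all genes called lower also fell, to 15.7%, 15.8% and 16.9% without MYC_On replicate 1, 2 or 3. It was 21.2% and 23.5% without MYC_Off replicate 2 or 3. The part of the high level in MYC_On replicate 3 was not tested. Of the 55 lower members, 30 stayed lower whichever library was left out. Without MYC_Off replicate 1 the count was 69, with 26.2% of all genes lower. With library size as the only scaling 76 members and 37.5% of all genes were lower. The median of all genes then moved to -0.56, and the distance of the members' median from it was -1.32, beside -1.41 with TMM.

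**Figure D2:**
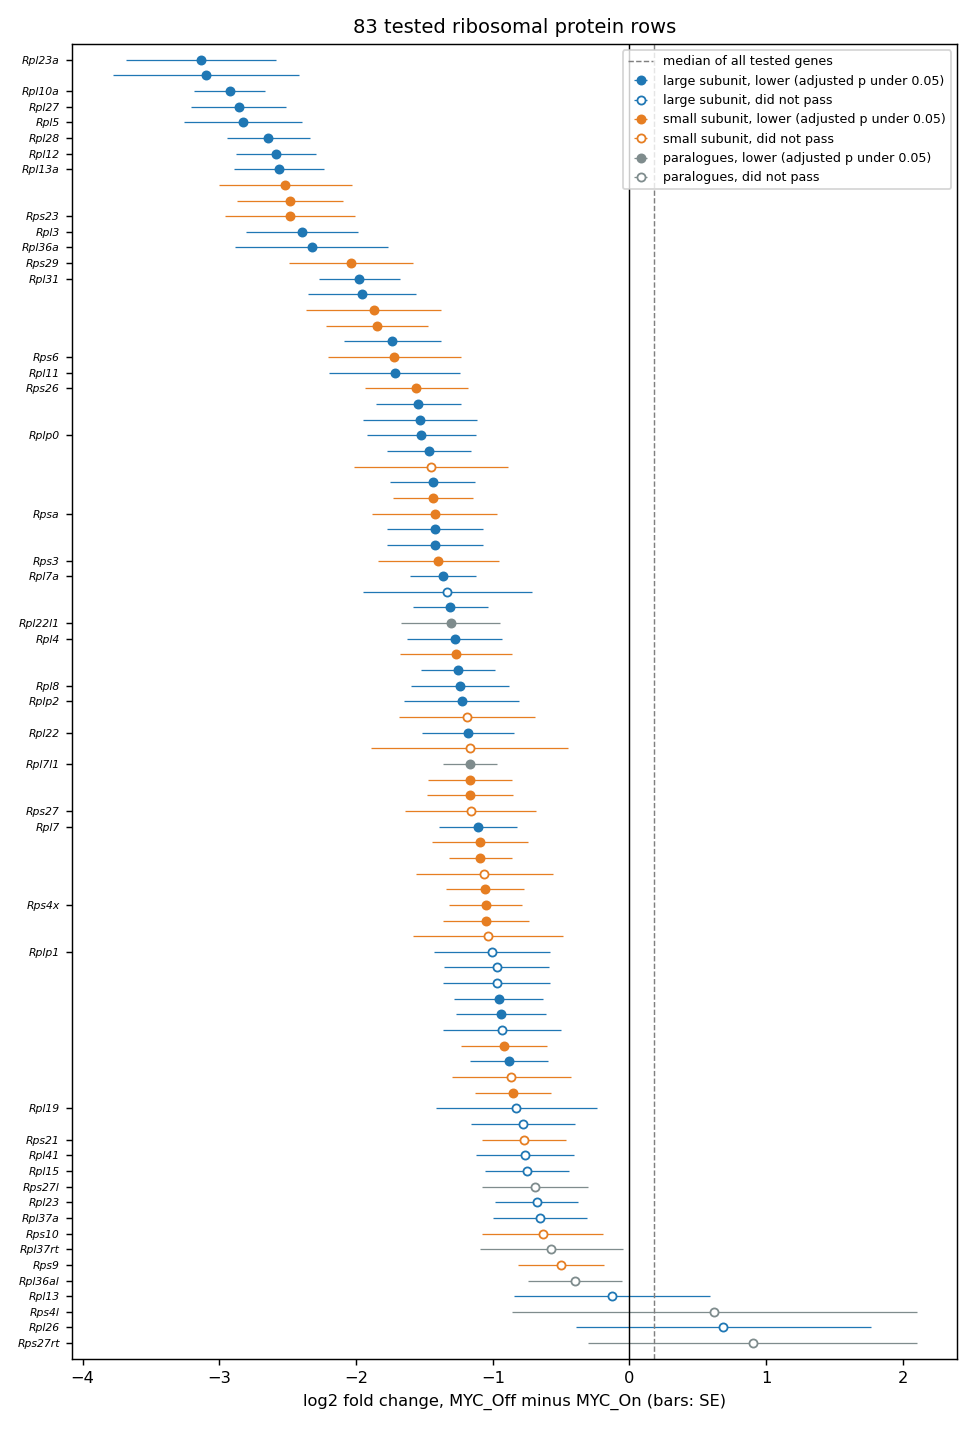
Each point is the log2 fold change, MYC_Off minus MYC_On, of 1 of the 83 tested rows with its standard error as a bar. Filled points passed an adjusted p of 0.05, and labels stand at members named in the text. All 55 filled points lie left of 0, and the dashed line marks the median of all tested genes, 0.18.

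Large and small subunit proteins moved alike in direction. Among large subunit proteins 32 of 45 tested were lower (median log2 fold change -1.33). Among small subunit proteins 21 of 31 were lower (median -1.17). The difference between the subunits was not tested. The drop showed in each MYC_Off library: relative to the MYC_On mean, the median of the tested members was -0.97, -1.52 and -1.38 on the log2 scale in MYC_Off replicates 1, 2 and 3, and -0.16, -0.11 and 0.24 in MYC_On. MYC_Off replicate 1 was the highest MYC_Off library for 51 of 83 members and replicate 2 the lowest for 42. Among the MYC_Off libraries, replicate 1 had the highest T cell and B cell marker sums. It also had the most Myc (74.8 CPM, against 10.2 and 18.7 in replicates 2 and 3). Its proliferation sum was the highest too (100 CPM, against 55.2 and 55.1). The part of any of these in its higher member levels was not tested. The order of members by abundance was much the same in both groups, with a Spearman correlation of their mean CPM of 0.96 over 83 members, which share libraries and gene lengths.

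**Figure D3:**
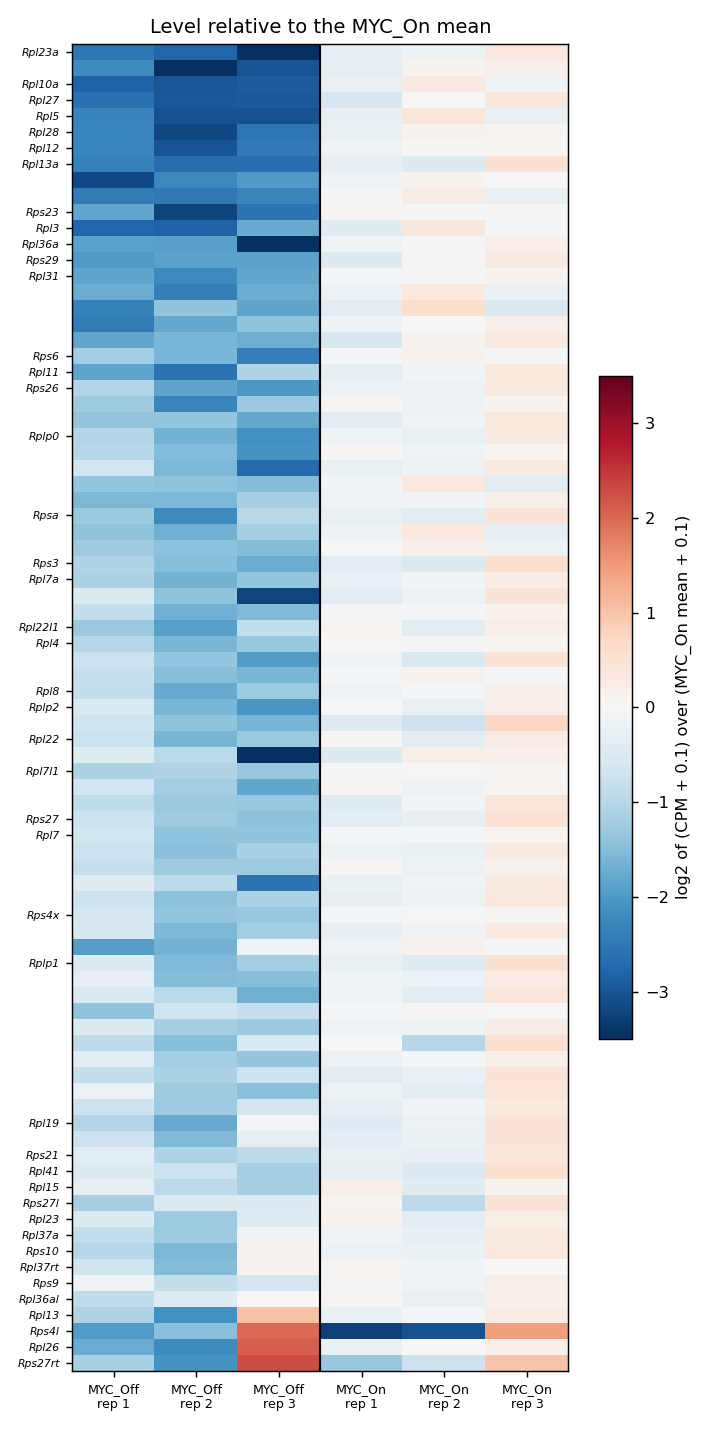
Colour shows, for each tested row and library, the log2 of CPM plus 0.1 over the MYC_On mean plus 0.1, with blue for lower and red for higher, MYC_Off left of MYC_On, rows in the order of the fold change and labels at members named in the text. The 3 MYC_Off columns are blue in most rows, and the lowest rows, Rpl13, Rps4l, Rpl26 and Rps27rt, are red in MYC_Off replicate 3.

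The largest falls among members that reached 10 CPM in their higher group were all in large subunit proteins. Rpl10a, the protein of the mobile L1 stalk beside the tRNA exit site (chromosome 17, 28328471 to 28331033, plus strand, mm10), had 5.33, 4.75 and 4.99 CPM in MYC_Off, against 32.2, 47.6 and 35.0 CPM in MYC_On. The groups were far apart and the MYC_Off libraries close to each other, and the log2 fold change was -2.93 (SE 0.26, adjusted p = 0.000805). Rpl27 (chromosome 11, 101442298 to 101445529, plus strand), a protein of the solvent side of the subunit, had 4.34, 3.37 and 3.46 CPM in MYC_Off, against 17.9, 27.6 and 36.0 CPM in MYC_On (log2 fold change -2.86, SE 0.35, adjusted p = 0.00117). Rpl28 (chromosome 7, 4792874 to 4795066, plus strand) had 9.23, 4.82 and 7.53 CPM in MYC_Off, against 37.5, 49.3 and 48.3 CPM in MYC_On (-2.64, SE 0.31, adjusted p = 0.00105). In these 3 genes the highest MYC_Off value lay below the lowest MYC_On value by a wide gap.

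Rpl12, which sits at the base of the stalk that recruits elongation factors (chromosome 2, 32961559 to 32965345, plus strand), had 5.66, 3.37 and 4.92 CPM in MYC_Off, against 25.8, 28.9 and 29.2 CPM in MYC_On (log2 fold change -2.59, SE 0.29, adjusted p = 0.000979). Rpl13a, which in human monocytes also leaves the ribosome to silence inflammatory mRNAs (chromosome 7, 45125558 to 45128761, minus strand), had 39.8, 32.8 and 32.4 CPM in MYC_Off, against 170, 149 and 302 CPM in MYC_On (-2.56, SE 0.33, adjusted p = 0.00142). Rpl13a was the best measured of the strong falls, with 15151 reads in all and 98.9% of its coding sequence free of exact copies. Rpl3, which reaches towards the peptidyl transferase centre (chromosome 15, 80077791 to 80091868, minus strand), averaged 4.70 ± 2.18 CPM in MYC_Off and 24.7 ± 7.04 CPM in MYC_On (SD, n = 3 each), which gave -2.40 on the log2 scale (SE 0.41, adjusted p = 0.00351). Rpl36a, a protein near the tRNA exit site (chromosome X, 134585654 to 134588062, plus strand), had 2.97, 2.91 and 0.691 CPM in MYC_Off, against 9.93, 10.6 and 12.6 CPM in MYC_On (-2.32, SE 0.56, adjusted p = 0.0118). Each of these 7 genes passed in all 6 fits that left out a library, with adjusted p values up to 0.0457. Exons of 20 members overlap a gene on the other strand, among them Rpl10a, Rpl28, Rpl12, Rpl5, Rpl23a, Rpl31, Rpl15 and Rpl22l1. Those of 7 overlap a gene on the same strand, among them Rpl13a, Rpl13, Rpl19, Rpl24 and Rps10. The strand setting of the count is not stated, so such reads cannot be told apart.

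The start regions of 4 of these genes are shown beside those of 3 members with at least 10 CPM that did not pass the test. The 3 are Rpl23, Rps10 and Rps9, described further on, with smaller falls. They are not shown to be unchanged, since each passed when 1 MYC_Off library was left out. Sequences are from RefSeq on GRCm38.p6, the build also called mm10, from 80 bases before to 20 bases from the start, read 5′ to 3′ along the gene. Capitals mark matches on either strand. The motifs searched were the E-box that MYC and MAX bind (CACGTG) and the box for Sp1 (GGGCGG). Further motifs were those for ETS factors (CCGGAAG) and YY1 (GCCATNTTG). The last were the TATA box (TATAAA) and a palindromic element (TCTCGCGA), which gives TCTCGCGAGA where both strands match and overlap. Capitals also mark a pyrimidine run, a cytosine followed by at least 4 pyrimidines, that begins within 10 bases of the start.
Rpl10a, chr17:28328485-28328584 (plus strand): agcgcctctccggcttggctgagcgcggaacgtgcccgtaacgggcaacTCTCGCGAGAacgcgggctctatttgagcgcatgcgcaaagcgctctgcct
Rpl27, chr11:101442165-101442264 (plus strand): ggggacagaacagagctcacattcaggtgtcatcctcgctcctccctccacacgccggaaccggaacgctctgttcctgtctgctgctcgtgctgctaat
Rpl28, chr7:4792885-4792984 (plus strand): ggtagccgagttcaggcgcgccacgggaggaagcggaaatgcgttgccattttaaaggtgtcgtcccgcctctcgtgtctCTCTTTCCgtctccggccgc
Rpl12, chr2:32961632-32961731 (plus strand): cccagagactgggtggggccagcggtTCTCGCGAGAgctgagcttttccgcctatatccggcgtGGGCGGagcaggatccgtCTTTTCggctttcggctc
Rpl23, chr11:97782420-97782519 (minus strand): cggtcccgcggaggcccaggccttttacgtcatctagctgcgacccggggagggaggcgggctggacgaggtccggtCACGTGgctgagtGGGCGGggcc
Rps10, chr17:27635225-27635324 (minus strand): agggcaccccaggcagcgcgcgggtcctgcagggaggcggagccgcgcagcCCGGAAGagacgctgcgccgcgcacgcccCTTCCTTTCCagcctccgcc
Rps9, chr7:3703961-3704060 (plus strand): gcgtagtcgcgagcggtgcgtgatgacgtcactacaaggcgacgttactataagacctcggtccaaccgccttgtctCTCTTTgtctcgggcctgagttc
Rpl10a and Rpl12 hold the palindromic element, Rpl28 and Rps10 begin with a pyrimidine run at the annotated start itself, and Rpl23 holds an E-box. Rpl10a has another RefSeq start, not printed here (chr17:28328391-28328490). That window lacks the palindromic element and holds a pyrimidine run that begins at -7 from its start. Rpl27 holds none of these letters in the 100 bases printed, but GGGCGG stands in its longer window, the kind counted next.

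RefSeq windows from 250 bases before to 50 bases after a start were at hand for 66 of the 91 members, 57 of them core. A member or gene was counted when any of its windows held the motif. The TCTCGCGA element stood in 11 of 57 core members (19.3%), against 1.13% of 27025 genes with a window, and in 9 of 39 lower members with a window (23.1%) against 2 of 23 that did not pass (8.7%). The ETS letters CCGGAAG stood in 42.1% of core members and 9.93% of all genes, and in 33.3% of lower members against 52.2% of those that did not pass. A pyrimidine run at the very start stood in 22.8% of core members and 3.01% of all genes, and within 10 bases of it in 59.6% and 34.4%. The E-box CACGTG stood in 6 of 57 core members (10.5%) and in 8.09% of all genes, with 10.3% among lower members and 8.7% among those that did not pass. GGGCGG stood in 61.4% of core members and 38.2% of all genes, GCCATNTTG in 5.26% and 2.9%, and TATAAA in 10.5% and 15.7%. These shares describe letters in a window and carry no test, and the presence of a match does not show binding.

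Rpl5 and Rpl11 form the 5S particle with 5S ribosomal RNA, and when not built into ribosomes they bind Mdm2 and raise p53. Both were lower in MYC_Off. Rpl5 (chromosome 5, 107900502 to 107909005, plus strand) had 2.25, 1.30 and 1.31 CPM in MYC_Off, against 9.49, 15.7 and 9.62 CPM in MYC_On (log2 fold change -2.83, SE 0.43, adjusted p = 0.00228). Rpl11 (chromosome 4, 136028265 to 136053428, minus strand) had 2.86, 1.68 and 5.07 CPM in MYC_Off, against 8.46, 9.86 and 13.3 CPM in MYC_On (-1.72, SE 0.48, adjusted p = 0.0199). The groups did not overlap in either gene, but the call on Rpl11 was lost without MYC_On replicate 2 (adjusted p = 0.0558) and without MYC_On replicate 3 (0.0751). The row of Rpl5 held 866 reads in all, and 4.7% of its 100-base words occur in no other annotated gene, so most of its mRNA cannot be assigned to it alone by short reads.

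The stalk of the large subunit, which brings elongation factors to the ribosome, is made of Rplp0 as its base and Rplp1 and Rplp2 as its arms. Rplp0 (chromosome 5, 115559467 to 115563727, plus strand) had 490, 312 and 230 CPM in MYC_Off, against 882, 828 and 1254 CPM in MYC_On (log2 fold change -1.52, SE 0.40, adjusted p = 0.0162). Rplp2 (chromosome 7, 141447370 to 141451585, plus strand) had 173, 81.7 and 60.1 CPM in MYC_Off, against 247, 204 and 287 CPM in MYC_On (-1.23, SE 0.42, adjusted p = 0.0414). Rplp1 (chromosome 9, 61913284 to 61914542, minus strand) had 451, 216 and 274 CPM in MYC_Off, against 526, 460 and 905 CPM in MYC_On, and did not pass (-1.01, SE 0.42, adjusted p = 0.0796). In all 3 genes the lowest MYC_On library was above the highest MYC_Off library, replicate 1. Without MYC_Off replicate 1 all 3 passed, Rplp1 with an adjusted p of 0.014. Without MYC_On replicate 3 none did, with adjusted p values of 0.0614 for Rplp0, 0.106 for Rplp2 and 0.24 for Rplp1. Rplp2 was also lost without MYC_On replicate 1 (adjusted p = 0.0884), MYC_On replicate 2 (0.0709), MYC_Off replicate 2 (0.119) or MYC_Off replicate 3 (0.085).

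Of 8 proteins that line the exit tunnel for the new protein chain or ring its mouth, 4 were lower, with a median log2 fold change of -0.95. That share is below the 66.3% of all tested members and above the 22.8% of all genes. The difference was not tested. Rpl4, whose long loop narrows the tunnel (chromosome 9, 64173375 to 64178666, plus strand), was the most abundant member, with 1113, 726 and 886 CPM in MYC_Off and 2177, 2141 and 2297 CPM in MYC_On (-1.28, SE 0.35, adjusted p = 0.0183). The MYC_On libraries were within a narrow range and every MYC_Off library was below them, yet the adjusted p was 0.0706, 0.0509 and 0.067 without MYC_On replicate 1, 2 or 3. Rpl23a, the docking site for the signal recognition particle (chromosome 11, 78180932 to 78183584, minus strand), had 0.659, 0.536 and 0.23 CPM in MYC_Off, against 3.47, 3.81 and 5.57 CPM in MYC_On, the lowest fold change of any member (-3.14, SE 0.55, adjusted p = 0.00364). It held 306 reads in all and has 47 near copies. Rpl31, on the rim of the tunnel mouth (chromosome 1, 39367842 to 39371911, plus strand), had 4.12, 3.14 and 4.15 CPM in MYC_Off, against 14.2, 14.6 and 16.2 CPM in MYC_On (-1.98, SE 0.30, adjusted p = 0.00215). Rpl26, also at the tunnel mouth, had 1.21, 0.842 and 18.6 CPM in MYC_Off, against 3.61, 4.34 and 4.83 CPM in MYC_On, and did not pass (0.69, SE 1.08, adjusted p = 0.617). Its MYC_Off replicate 3 stood apart from every other library, and without it Rpl26 was lower (-2.11, adjusted p = 0.0134).

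Of 9 proteins along the mRNA channel and at the decoding site of the small subunit, 4 were lower, with a median log2 fold change of -1.19. This share of 44.4% stands beside 66.3% of all tested members and 22.8% of all genes. Rps3, at the mRNA entry and the most abundant small subunit member (chromosome 7, 99477896 to 99483738, minus strand), had 802, 590 and 501 CPM in MYC_Off, against 1266, 1171 and 2559 CPM in MYC_On (-1.40, SE 0.44, adjusted p = 0.0315). MYC_On replicate 3 stood high, and without that library the adjusted p was 0.114. The call was also lost without MYC_On replicate 1 (0.0606), MYC_Off replicate 2 (0.0682) or MYC_Off replicate 3 (0.0693). Rps23, whose loop checks the codon and anticodon pair (chromosome 13, 90922958 to 90924950, plus strand), had 2.42, 0.842 and 1.38 CPM in MYC_Off, against 8.95, 8.31 and 8.97 CPM in MYC_On (-2.48, SE 0.48, adjusted p = 0.00506). Rps26, at the mRNA exit (chromosome 10, 128624534 to 128626747, minus strand), had 321, 183 and 164 CPM in MYC_Off, against 566, 576 and 827 CPM in MYC_On (-1.56, SE 0.38, adjusted p = 0.0119), and passed whichever library was left out.

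Rpl8, a protein close to the peptidyl transferase centre and among the 5 most abundant members, as were Rpl4, Rps3 and Rplp0 (chromosome 15, 76904078 to 76906314, plus strand), had 575, 305 and 427 CPM in MYC_Off, against 937, 977 and 1174 CPM in MYC_On (log2 fold change -1.24, SE 0.36, adjusted p = 0.0228). It lost the call without any one of the MYC_On libraries (adjusted p = 0.0655, 0.0583 and 0.079 without replicate 1, 2 or 3). The 10 members with the most reads held 63.5% to 66.2% of all member reads in MYC_Off and 65.5% to 67.7% in MYC_On. Members that reached 100 CPM in their higher group were lower in 20 of 28 cases (median log2 fold change -1.10), and those under 10 CPM in 11 of 19, at a median of -1.54. Of the 30 members that carry snoRNA genes in their introns, 58 snoRNAs in all, 22 were lower (73.3%). The tested members with none were lower in 33 of 53 cases (62.3%), and all genes in 22.8%.

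The members at the other end of the range, among those with at least 10 CPM, did not pass the test. Rps9, a protein of the mRNA entry site (chromosome 7, 3703993 to 3706897, plus strand), had 473, 289 and 331 CPM in MYC_Off, against 492, 460 and 593 CPM in MYC_On (log2 fold change -0.50, SE 0.32, adjusted p = 0.215). The groups overlapped through MYC_Off replicate 1, and without it the adjusted p was 0.0234. Rpl23, on the face that meets the small subunit (chromosome 11, 97777527 to 97782437, minus strand), had 120, 69.1 and 122 CPM in MYC_Off, against 181, 127 and 190 CPM in MYC_On (-0.68, SE 0.30, adjusted p = 0.0973). Rps10, near the mRNA entry (chromosome 17, 27630418 to 27636669, minus strand), had 17.6, 11.9 and 38.9 CPM in MYC_Off, against 30.9, 29.8 and 45.5 CPM in MYC_On (-0.64, SE 0.45, adjusted p = 0.261). Its MYC_Off replicate 3 lay within the MYC_On range, and without it the adjusted p was 0.0181. Rpl15 (chromosome 14, 18267823 to 18271391, minus strand) averaged 34.1 ± 11.2 CPM in MYC_Off and 57.3 ± 12.8 CPM in MYC_On (SD, n = 3 each; adjusted p = 0.0739), and Rpl37a (chromosome 1, 72711290 to 72713813, plus strand) averaged 31.1 ± 13.0 CPM in MYC_Off and 49.0 ± 11.9 CPM in MYC_On (adjusted p = 0.144). Rpl15 and Rpl23 passed without MYC_Off replicate 1 (adjusted p = 0.0104 and 0.0438) and Rpl37a without MYC_Off replicate 3 (0.0244). A p that misses the threshold does not show these genes to be unchanged.

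Some rows were uneven between libraries of a group in a way that most members were not. Rpl13 (chromosome 8, 123102350 to 123105244, plus strand) had 12.2, 5.74 and 51.9 CPM in MYC_Off, against 21.5, 24.4 and 30.2 CPM in MYC_On (log2 fold change -0.12, SE 0.72, adjusted p = 0.896). MYC_Off replicate 3 was the highest and replicate 2 the lowest of all 6 libraries. Without MYC_Off replicate 3, Rpl13 was lower (-1.56, adjusted p = 0.0216), and without MYC_Off replicate 1 or 2 its fold change was 0.03 or 0.21. Rps4l, an intronless copy of Rps4x annotated as a transcribed pseudogene (chromosome 6, 148354656 to 148355598, plus strand), had 4.07, 5.82 and 64.8 CPM in MYC_Off, against 1.60, 1.88 and 45.0 CPM in MYC_On (0.62, SE 1.48, adjusted p = 0.746). It was high in replicate 3 of both groups and low in the other 4 libraries. Among rows of ribosomal protein pseudogenes, which are no members, 20 had at least 100 reads over all 6 libraries. Of these, 10 were highest in MYC_Off replicate 3. Rps12-ps10 (60 of 107 reads there) and Rpl9-ps6 (74 of 165) reached 100 reads only through that library. The share of all genes highest in it was not counted, so the 10 rows cannot show a lean of pseudogenes. Together the 276 pseudogene rows held 0.75, 0.849 and 3.17 reads per 100 member reads in MYC_Off and 0.876, 0.801 and 0.861 in MYC_On. The part of MYC_Off replicate 3 in those rows was not tested. Without that library 52 members were lower, with a median of -1.31, beside 23.5% of all genes.

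Among the 14 paralogues and copies 7 could be tested and 2 were lower (28.6%, near the 22.8% of all genes), with a median log2 fold change of -0.57. Rpl7l1, a relative of Rpl7 that works in large subunit assembly (chromosome 17, 46773907 to 46782672, minus strand), had 71.8, 74.5 and 61.8 CPM in MYC_Off, against 150, 156 and 161 CPM in MYC_On (-1.17, SE 0.20, adjusted p = 0.00342), with little spread in either group. Rpl22l1, which can take the place of Rpl22 (chromosome 3, 28805436 to 28807424, plus strand), had 6.26, 4.06 and 8.45 CPM in MYC_Off, against 16.3, 12.1 and 18.1 CPM in MYC_On (-1.31, SE 0.36, adjusted p = 0.0197), and lost the call without MYC_On replicate 1 (adjusted p = 0.0647) or replicate 3 (0.0708). Rpl36al (-0.40, SE 0.35, adjusted p = 0.362) and Rpl37rt (-0.57, SE 0.52, adjusted p = 0.387) did not pass. Rpl3l, the form of Rpl3 found in heart and skeletal muscle, had 11 reads over the MYC_Off libraries and 0 over the MYC_On libraries. That is 5.56-fold higher when MYC_On is set to a floor of 3 reads per group. Rpl39l, known from male germ cells, had 13 reads in MYC_Off and 0 in MYC_On, 6.57-fold higher by the same floor. The MYC_Off reads were taken without their counting error, so these ratios are not lower bounds. Both counts are too low for the main test. The other untested copies, Rpl6l, Rpl10l, Rps3a2, Rps3a3 and Rps12l1, had at most 8 reads each in all 6 libraries.

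The Rps27 genes are an example of near and exact copies among these rows. Rps27 encodes a small subunit protein with a zinc finger, Rps27rt is its intronless retrocopy, and Rps27l is a paralogue with introns that p53 is known to induce. The first 100 coding bases are given from GENCODE M21 transcripts on mm10, 5′ to 3′, with capitals where a base differs from Rps27.
Rps27: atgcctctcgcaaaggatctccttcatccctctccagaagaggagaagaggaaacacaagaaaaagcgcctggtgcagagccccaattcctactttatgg
Rps27rt: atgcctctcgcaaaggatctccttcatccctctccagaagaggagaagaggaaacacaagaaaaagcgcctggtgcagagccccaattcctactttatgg
Rps27l: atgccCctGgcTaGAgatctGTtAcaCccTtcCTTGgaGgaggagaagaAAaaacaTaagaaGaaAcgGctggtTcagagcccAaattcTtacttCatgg
These stretches come from chr3:90213208-90213615 (minus strand, with introns) for Rps27, chr9:114982608-114982707 (minus strand) for Rps27rt and chr9:66946175-66946924 (plus strand, with introns) for Rps27l. Over the 252 coding bases Rps27rt differs from Rps27 at 0 positions and Rps27l at 60, an identity of 76.2%. Rps27 had 1.76, 1.22 and 1.07 CPM in MYC_Off, against 2.32, 2.5 and 4.34 CPM in MYC_On (log2 fold change -1.16, SE 0.48, adjusted p = 0.075), and only 1.6% of its 100-base words occur in no other gene. Rps27rt had 0.989, 0.459 and 11.4 CPM in MYC_Off, against 0.846, 1.35 and 4.68 CPM in MYC_On (0.90, SE 1.2, adjusted p = 0.553, and -1.70 without MYC_Off replicate 3). Rps27l, whose words all occur nowhere else, had 39.2, 62.1 and 63.2 CPM in MYC_Off, against 94.8, 46.1 and 124 CPM in MYC_On (-0.69, SE 0.39, adjusted p = 0.17). Its groups overlapped through MYC_On replicate 2, without which it was lower (adjusted p = 0.0455).

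Across the core proteins, levels tended to be lower in rows with a small share of copy-free sequence. Coding sequence with its flanks was divided into 100-base words, and a word was called free of copies if no transcript of another annotated gene held it exactly. The median core protein had 44.6% such words, 15 core proteins had under 20%, and 70 of the 91 members had at least 1 near copy, up to 112 for Rpl7a. Per kilobase of that searched stretch (the coding sequence with 50 bases before and 100 after it), core levels ran from 0.38 to 722 CPM in MYC_Off (median 32.9) and from 0.813 to 1900 CPM in MYC_On (median 67.1), although ribosomes need these proteins in equal numbers. The Spearman correlation between the share of copy-free words and the MYC_On level per kilobase was 0.69 over 76 core proteins, and when levels were taken per copy-free word instead, the interquartile range on the log2 scale narrowed to 3.80 in MYC_Off, against 4.54 per kilobase, and to 2.7 in MYC_On, against 3.91 per kilobase. Values of rows with few copy-free words cannot be read as levels of the whole mRNA. The 3 core rows with the fewest reads were Rpl24, Rpl19 and Rps29, and not all of them had few copy-free words. Rpl24 was among the 15 core proteins under 20%, and Rpl19 had 37.7% such words. Exons of Rpl24 and of Rpl19 also overlap other annotated genes on the same strand, and the part of this in their low counts was not tested. Rps29 had 66.2%, above the core median of 44.6%, and 0 near copies, so its low level does not follow this tendency. Rpl24 had 9 reads in MYC_Off and 31 in MYC_On, and could not be tested. Rpl19 had 1.21, 0.689 and 2.46 CPM in MYC_Off, against 1.87, 2.21 and 3.65 CPM in MYC_On (adjusted p = 0.267), and Rps29 had 0.714, 0.765 and 0.768 CPM in MYC_Off, against 2.18, 3.19 and 3.90 CPM in MYC_On (log2 fold change -2.04, SE 0.46, adjusted p = 0.00889).

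The fall was present in rows with many and with few copy-free words. Of 38 tested members with at least 50% copy-free words, 22 were lower (median log2 fold change -1.08). Of 45 with fewer such words 33 were lower (median -1.42). With 1 mismatch allowed in a copy, 11 of 19 with at least 50% copy-free words were lower (median -1.17), against 44 of 64 with fewer (median -1.29). The Spearman correlation between the share of copy-free words and the log2 fold change was 0.40 over 76 core proteins, or 0.30 with 1 mismatch allowed. Members free of exact copies over their whole stretch included Rps3 among the lower ones and Rps21 and Rpl41 among those that did not pass. Rps21 averaged 96.6 ± 24.4 CPM in MYC_Off and 165 ± 50.5 CPM in MYC_On (SD, n = 3 each; -0.77, SE 0.31, adjusted p = 0.0676), and Rpl41 averaged 162 ± 37.2 CPM in MYC_Off and 276 ± 114 CPM in MYC_On (-0.76, SE 0.36, adjusted p = 0.112). Whether the handling of reads with several matches shifts the fold change was not tested.

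**Figure D4:**
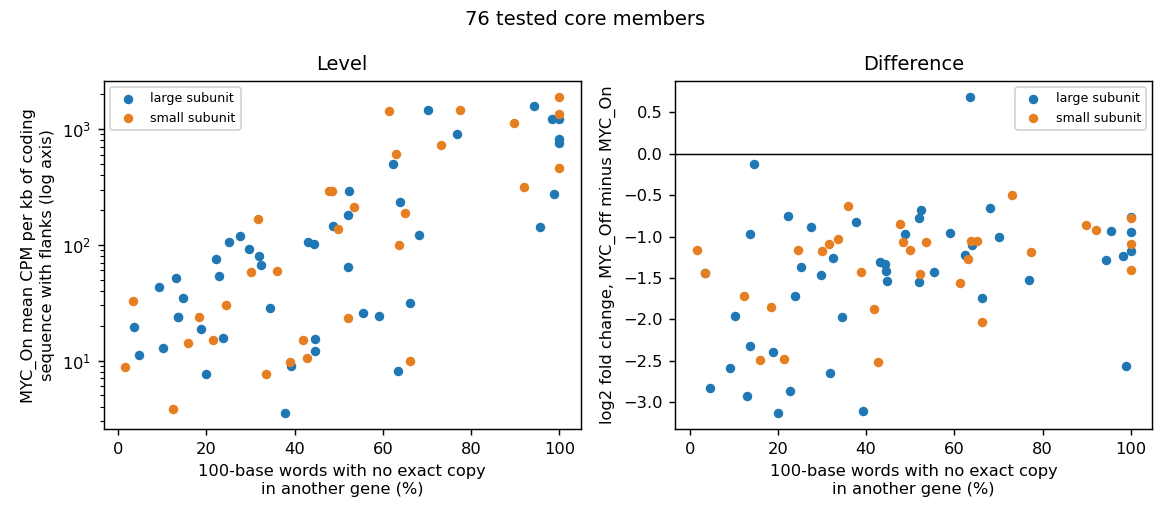
Each point is a tested core protein, placed by the percentage of its 100-base words with no exact copy in another gene and, on the left, by its MYC_On level in CPM per kilobase of coding sequence with flanks on a log axis or, on the right, by its log2 fold change. Levels climb with the share of copy-free words (Spearman 0.69), and the fold changes under -2 lie mostly at low shares (Spearman 0.40).

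Ribosome components whose symbols fall outside the choice were read beside the members. Rack1, the propeller protein on the head of the small subunit, had 902, 621 and 524 CPM in MYC_Off, against 1207, 1248 and 2188 CPM in MYC_On (-1.18, SE 0.41, adjusted p = 0.0444). Its call was lost without any one library other than MYC_Off replicate 1, with adjusted p values up to 0.157. Fau, which makes Rps30 fused to a ubiquitin-like protein, had 20.99, 20.97 and 9.37 CPM in MYC_Off, against 15.3, 19.0 and 21.2 CPM in MYC_On, and its groups overlapped (-0.11, SE 0.36, adjusted p = 0.812, and 0.10 without MYC_Off replicate 3).

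Of 9 tested chaperones and escorts of single ribosomal proteins 7 were lower and 0 higher, with a median log2 fold change of -1.66. Among all genes tested, 22.8% were lower and 29.9% higher. Grwd1, the chaperone of Rpl3, averaged 11.5 ± 1.21 CPM in MYC_Off and 72.9 ± 9.35 CPM in MYC_On (SD, n = 3 each; -2.67, SE 0.22, adjusted p = 0.000805), next to the fall in Rpl3 itself. Heatr3, which carries Rpl5 into the nucleus, averaged 35.9 ± 5.62 CPM in MYC_Off and 120 ± 1.42 CPM in MYC_On (-1.74, SE 0.21, adjusted p = 0.00109), and Tsr2, which holds Rps26, averaged 18.4 ± 2.61 CPM in MYC_Off and 64.3 ± 2.21 CPM in MYC_On (-1.80, SE 0.21, adjusted p = 0.00104). Of 18 other mRNAs known to carry a TOP motif, 12 were lower and 1 was higher, with a median of -1.29. Hnrnpa1, an RNA-binding protein, had 4.84, 2.53 and 2.84 CPM in MYC_Off, against 22.8, 23.4 and 19.7 CPM in MYC_On (-2.68, SE 0.34, adjusted p = 0.00138). Impdh2, an enzyme of guanine nucleotide synthesis (-2.85, SE 0.40, adjusted p = 0.00183), and the elongation factor subunit Eef1g (-1.75, SE 0.25, adjusted p = 0.00174) were lower too. The higher gene was Vim, a filament protein of mesenchymal cells, which averaged 314 ± 233 CPM in MYC_Off and 37.2 ± 7.38 CPM in MYC_On (3.08, SE 0.63, adjusted p = 0.00664).

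Of 15 genes of mTORC1 and TOP control, 5 were lower (33.3%, beside 22.8% of all genes) and 0 higher (beside 29.9%). The median log2 fold change was -0.29, and the share of lower genes was near that of all genes. Larp1, which binds TOP mRNAs, averaged 160 ± 44.5 CPM in MYC_Off and 469 ± 146 CPM in MYC_On (-1.55, SE 0.36, adjusted p = 0.0108), Rps6kb1, the kinase that phosphorylates Rps6, averaged 40.9 ± 6.75 CPM in MYC_Off and 110 ± 12.7 CPM in MYC_On (-1.43, SE 0.22, adjusted p = 0.00232), and Akt1s1, an inhibitor within mTORC1, averaged 59.3 ± 4.18 CPM in MYC_Off and 129 ± 15.3 CPM in MYC_On (-1.12, SE 0.20, adjusted p = 0.00397). Of 10 genes for rescue of stalled ribosomes and removal of surplus subunits, 4 were lower (beside 22.8% of all genes) and 0 higher (beside 29.9%), with a median of -0.73. The 3 with the lowest adjusted p were Abce1, which splits ribosomes after termination (-1.74, SE 0.25, adjusted p = 0.00194), and Ltn1 and Nemf, which clear stalled chains from the large subunit (-1.37 and -0.95, adjusted p = 0.00689 and 0.00697). Mitochondrial ribosomal proteins, encoded in the nucleus for the other ribosome of the cell, were lower in 46 of 77 cases and higher in 0, with a median of -0.93, beside 53 of 76 and a median of -1.26 for the core cytosolic ones. The difference between those lists was not tested, and 22.8% of all genes were lower. Mrps27 averaged 20.2 ± 0.908 CPM in MYC_Off and 70.8 ± 7.10 CPM in MYC_On (-1.81, SE 0.20, adjusted p = 0.000967), and Mrps26 and Mrpl47 had log2 fold changes of -1.84 and -1.80.

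**Figure D5:**
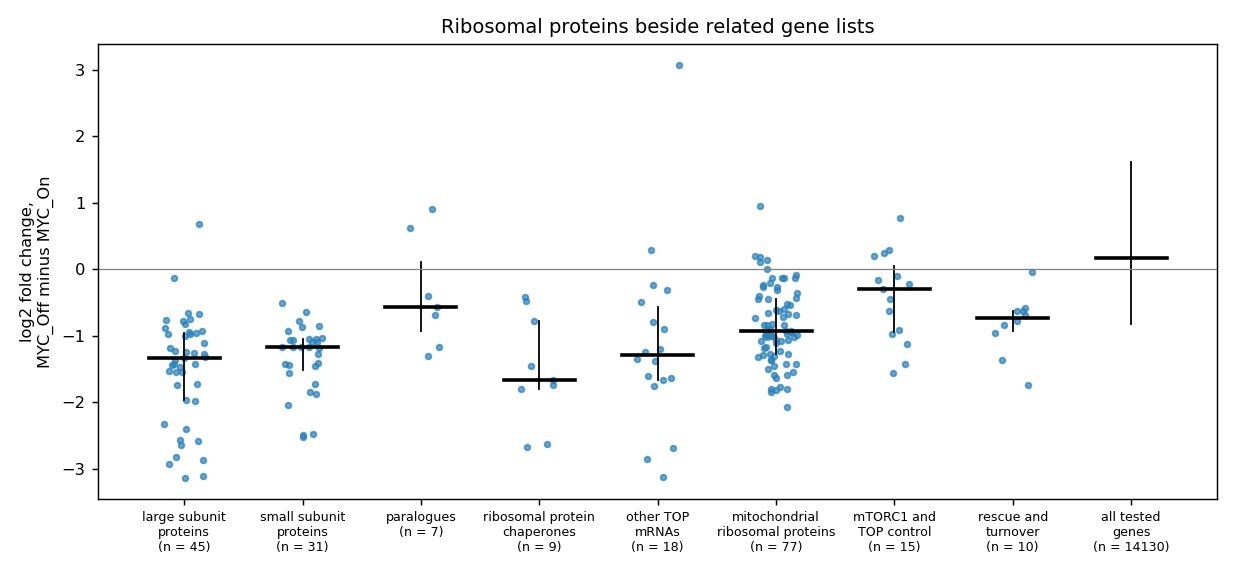
Points are log2 fold changes, MYC_Off minus MYC_On, of the tested genes of each list, with the median as a thick line and the quartiles as a thin one, and for all 14130 tested genes the median and quartiles alone. Large subunit, small subunit and mitochondrial ribosomal proteins have medians of -1.33, -1.17 and -0.93, against 0.18 for all genes.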

How the data were processed

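RNA-seq of 3 MYC_Off and 3 MYC_On samples was analysed from the deposited table of raw read counts per gene. The tools listed in the submitters' processing notes are featureCounts, STAR, Trimmomatic, Picard and DESeq2, with mm10 as the build. Tool versions, annotation, strand setting and the handling of multiply matching reads were not given in the sources used here. Samples were grouped by their titles.

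The whole table was fitted with edgeR 4.0.16 (R 4.3.3). Low rows were removed by filterByExpr with a minimum count of 10 and a total of 15, libraries were scaled by TMM, and the comparison was a robust quasi-likelihood test of MYC_Off minus MYC_On, with Benjamini-Hochberg adjustment over 14130 genes and a threshold of 0.05. CPM values are TMM-scaled, and standard errors were derived from fold changes and F statistics. Library medians used log2 CPM with a prior count of 2. Counts and medians over tested members describe rows that passed the filter and carry no test. The fit was tested on simulated data. Alternatives were other scalings, filters and tools (limma 3.58.1, DESeq2 1.42.0), a stricter threshold, a minimum change, a replicate block, and leaving out each library.

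All 91 symbols matched GENCODE M21 (mm10). Copies were sought with BLAST 2.17.0 in the transcripts of other genes, over the coding sequence with 50 bases before and 100 after it. A near copy covered at least 80% of that stretch at 85% identity. Words were matched to transcripts, since no genome sequence was used here.

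Members and lists were chosen with earlier results of these data known. Genes were named by rule: the members of 4 small lists (paralogues, stalk, 5S particle, components outside the symbol rule), the 8 lowest and 8 highest fold changes at 10 CPM or more, the 5 most abundant, the 3 core rows with fewest reads, and up to 3 of each other list by adjusted p. Rpl26, Rps21, Rpl41, Rps27 and Vim were added after their values were seen. 2 genes that fall under these rules are not reported here. Libraries of a group differed by more than sampling noise, with a chi-square of at least 29.1 per degree of freedom. Depth intervals and floors cover counting error only, and a floor covers it only in the group with 0 reads.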

Additional observations from a re-analysis of the deposited data

How the results depend on the processing

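The direction of the members' median held in every alternative run, from -1.89 with library size only to -1.13 without MYC_On replicate 3, and its distance from the median of all genes lay between -1.68 and -1.27. The median was -1.55 with library size without the 20 most abundant genes. The count of 55 lower members became 26 at an adjusted p of 0.01 and 18 against a minimum change of 2-fold, by the construction of those tests. The share of all genes called lower was then 13.4% and 10.1%. The members' count ranged from 33 to 69 when a library was left out, and their medians from -1.64 to -1.13. In those fits 15.7% to 26.2% of all genes were lower. Without a filter 2 members were higher (Rpl3l and Rpl39l). The share of reads in MYC_Off was 0.827% when plasma protein genes were left out with the 20 most abundant genes. The replicate numbers are not stated to pair the samples, and deviations of same-numbered samples correlated at -0.26, -0.17 and 0.04. Such correlations over all genes cannot show whether samples shared an animal or a batch. With the replicate number as a block 40 members were lower and 1 was higher (Rps4l), with a median of -1.28. In that fit 18.5% of all genes were lower. Among the genes followed here signs turned for 5 that did not pass in the fit of all 6 libraries. Leaving out a library gave -1.82 to 3.78 for Rps4l (-0.23 with library size only), -1.70 to 1.91 for Rps27rt, -2.11 to 1.06 for Rpl26 (-0.21 with library size only, -0.70 with limma-voom and -0.71 with the replicate block), -0.43 to 0.10 for Fau and -1.56 to 0.21 for Rpl13 (0.03 without MYC_Off replicate 1). The cause was not tested. Copy-free words of 50 bases gave 10 of 18 lower members at 50% or more (median -1.02) and 45 of 65 below (median -1.31). Words that occur once in the genome were not run.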
